A study of Rattus norvegicus with 16 samples.

Results

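The collagen and laminin genes of rat frontal cortex were followed through 4 groups of animals. Members were the gene symbols made of Col, a number, the letter a and a number, or of Lam, 1 of the letters a, b and c, and a digit, which gave 32 genes, 25 collagens and 7 laminins, of 17001 symbols in the expression table. RNA was measured by sequencing of poly-A RNA in 16 libraries from male Sprague Dawley rats, 4 libraries in each group. The chow group was kept on chow and the HF group on a high fat diet, in both cases for 7 weeks starting at 11 weeks of age. HF_PBS rats had the high fat diet together with 10 days of abdominal injections of phosphate-buffered saline (PBS). In HF_5AzaD rats, on the high fat diet too, the injected PBS contained 5-AzaD, 5-aza-2′-deoxycytidine, an inhibitor of the DNA methyltransferases. A chow group with injections was not analysed here, so the diet is shared by HF, HF_PBS and HF_5AzaD, and PBS is shared by both injected groups. Separate animals for each library are not stated in the labels, and p-values cover only the variation among these libraries, some or all of which may be technical.

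Collagens are trimers of alpha chains that wind into a triple helix. The fibrillar collagens (types I, II, III, V, XI and XXVII among them) form banded fibres, whereas type IV collagen forms the network of basement membranes, the thin sheets on which blood vessels and the pial surface of the brain rest. Laminins are cross-shaped trimers of an alpha, a beta and a gamma chain, and they build the other network of the same sheets. In brain, these genes are known mainly from blood vessels and from the meninges, the fibroblast-rich coverings of the cortex, while some are also made by neurons and glia.

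Levels are given as FPKM, a fragment count per length of transcript and per size of library, as deposited. Differences between groups are in log2(FPKM + 0.5), a scale that compresses the changes of genes with low levels. They carry a standard error (SE) or a 95% interval from limma, fitted over the 14824 loci that averaged 1 FPKM or more. A gene passed the test, and is said to have risen or fallen, at a Benjamini-Hochberg adjusted p under 0.05 over all these loci. Tissue was measured in bulk, so fewer cells of a type and less RNA per cell cannot be told apart.

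Of the 32 genes, 20 had a mean of at least 1 FPKM, and 19 of these were tested, 13 collagens and 6 laminins. Col5a1, a chain of the fibrillar type V collagen, was left out because its value carried the status FAIL in 3 libraries (HF 7, HF_5AzaD 3 and HF_5AzaD 6). Its listed values were 3.71, 3.62, 4.33 and 4.52 FPKM in chow, 5.47, 2.76, 7.11 and 1.96 in HF, 5.40, 5.72, 2.94 and 4.09 in HF_PBS and 5.89, 5.36, 6.46 and 8.61 in HF_5AzaD. Col1a2, the partner chain of Col1a1 in type I collagen, was listed at 0 in all 16 libraries at both of its loci. The other 11 genes had means under 1 FPKM. Col4a1 had 3 loci, which disagreed, and it is described by the locus with the highest mean unless stated.

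The plus strand between neighbouring type IV genes, and the stretch just before the start of each fibrillar gene that rose, are shown because they lie next to members whose levels moved in the comparisons described further on. Col4a2 is not analysed here, and the stretch of Lamc1, which moved too, is not shown. Sequences are 5′ to 3′ and come from RefSeq promoter windows on the build GRCr8, which is not the build rn5 named in the submitters' processing notes. Capitals mark the CCAAT box (CCAAT, or ATTGG on the other strand), the GC box (GGGCGG or CCGCCC) and the TATA box (TATAAA or TTTATA), each searched on both strands, with overlapping matches all marked.
Col4a4 and Col4a3, 88 bases shared by both windows (chr9:91323740-91323827, plus strand): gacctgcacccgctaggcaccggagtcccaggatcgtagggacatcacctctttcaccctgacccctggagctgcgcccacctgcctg
Col4a2 and Col4a1, all 76 bases between the starts (chr16:84885521-84885596, plus strand): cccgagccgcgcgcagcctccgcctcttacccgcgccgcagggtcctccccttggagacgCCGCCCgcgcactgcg
Col5a2, 100 bases before the start (chr9:55090152-55090251, minus strand): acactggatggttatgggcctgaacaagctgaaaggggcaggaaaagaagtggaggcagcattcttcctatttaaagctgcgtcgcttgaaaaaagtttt
Col11a1, 100 bases before the start (chr2:204509036-204509135, plus strand): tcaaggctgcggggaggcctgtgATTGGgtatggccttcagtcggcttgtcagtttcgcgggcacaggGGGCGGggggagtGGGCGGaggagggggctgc
Col27a1, 100 bases before the start (chr5:81662808-81662907, plus strand): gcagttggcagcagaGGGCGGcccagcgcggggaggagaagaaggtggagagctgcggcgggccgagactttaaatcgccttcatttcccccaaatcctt
Col11a2, 100 bases before the start (chr20:4817649-4817748, minus strand): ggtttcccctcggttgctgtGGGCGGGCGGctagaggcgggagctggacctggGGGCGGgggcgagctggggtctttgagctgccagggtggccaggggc
Col5a3, 100 bases before the start (chr8:27625949-27626048, minus strand): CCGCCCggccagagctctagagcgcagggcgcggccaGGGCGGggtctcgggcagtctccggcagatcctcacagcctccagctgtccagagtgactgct

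Col4a4 and Col4a3 point away from each other, with 412 bases between their starts. Col4a1 and Col4a2 do so across 76 bases that hold 13 CG dinucleotides and 1 GC box. A window of 250 bases before to 50 bases after the start was matched for 25 of the 32 genes. A GC box stood in 15 of the 25 windows, against 33.1% of all 33469 RefSeq windows of the same length. The CCAAT box stood in 7 of 25, against 37.5% of all, and the TATA box in 3 of 25, against 14.2% of all. The median number of CG dinucleotides was 15 in the members' windows and 7 in all windows, and 8 of 25 members had 20 or more, against 24.2% of all. Col5a2 differed from the other fibrillar genes shown, with none of the 3 motifs in its 300-base window and 6 CG dinucleotides. These matches describe letters in a window and were not compared with any measurement of DNA methylation or of factor binding.

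Levels ranged widely over the family. Col11a2, a chain of the fibrillar type XI collagen, was the highest with a mean of 26.3 FPKM over the 16 libraries. Lamb2, the beta chain of vascular and synaptic laminins, followed at 10.1, then Col4a1 at 6.78, the gamma chain Lamc1 at 6.63 and Col1a1 at 5.53. In all, 8 genes averaged at least 5 FPKM. At the low end, Col15a1 and Col17a1 averaged 0.0122 and 0.0498 FPKM. The spread between libraries also differed: Lamc1 ranged from 4.24 to 8.47 FPKM, whereas Col13a1, a membrane-spanning collagen, ranged from 0.228 to 8.80.

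**Figure D1:**
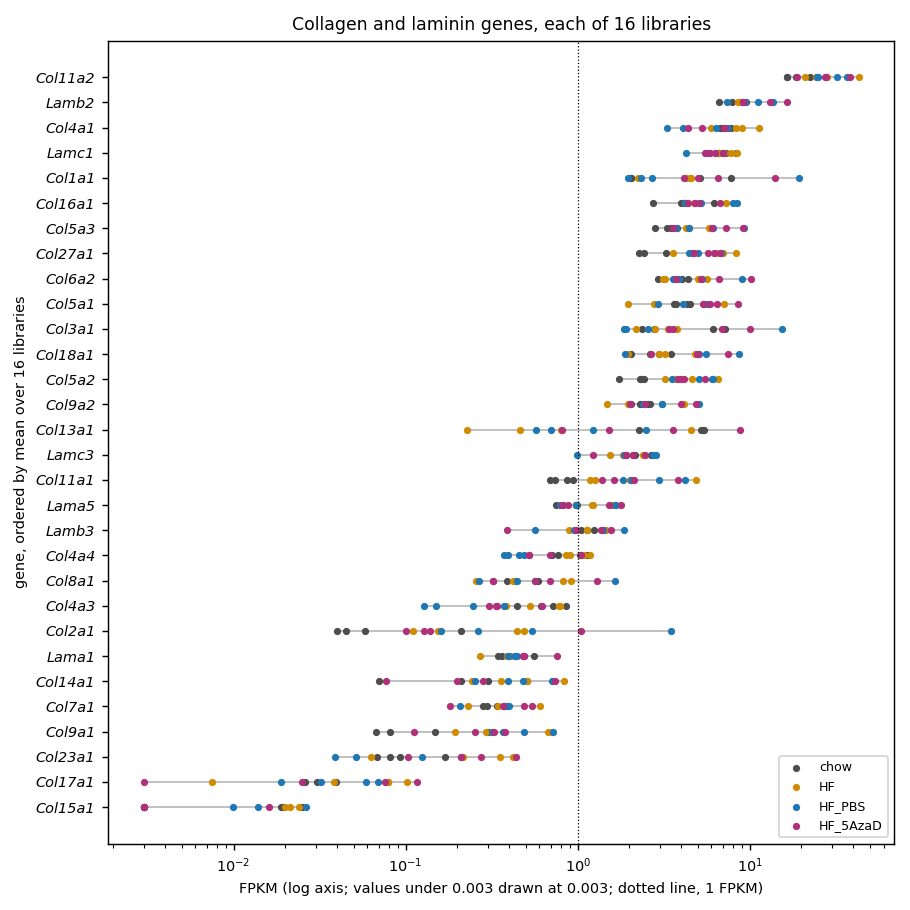
FPKM (log axis) of 30 collagen and laminin genes in each of 16 libraries, coloured by group, with genes ordered by their mean; Col1a2, listed at 0 throughout, is not drawn. Col11a2 lies between 16.4 and 43.0 FPKM in every library, and Col13a1 spreads from 0.228 to 8.80.

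Absolute depth is unknown, since counts were not used here; the steps between low FPKM values put the libraries at 30.1% to 100% of the deepest, which was chow 2. The HF libraries reached 30.1% to 36.4% and the chow libraries 38.7% to 100%, with 32.5% to 42.7% in HF_PBS and 34.6% to 44.5% in HF_5AzaD. Between 23064 and 24333 loci were above 0 in each library. A pair of libraries, HF_PBS 2 and HF_5AzaD 7, stood apart in markers of the leptomeninges and were also the highest in markers of mural cells. The counts of collagens and laminins past the test, and of the genes that work with them, are given with and without this pair. The comparisons share groups, so their results are set side by side and are not independent of each other. Nothing measured separates the injections from any other step that the injected libraries had in common, and these cannot be told apart.

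The members that rose against chow were fibrillar collagens. Of the 7 fibrillar genes tested, 4 were higher in HF_PBS than in chow, where 12.4% of all loci were higher: Col5a2, Col11a1, Col11a2 and Col27a1. Col5a2, Col27a1 and Col5a3 were higher in HF_5AzaD than in chow, where 7.18% of all loci were. The fibrillar chains Col1a1 and Col3a1 passed in no comparison. In HF, without injections, no gene of the table passed the test against chow. No collagen or laminin differed between HF_5AzaD and HF_PBS by the test.

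Col5a2 encodes a chain of type V collagen, which is known to nucleate and limit the width of type I fibrils. It was at 2.42, 2.30, 1.73 and 2.34 FPKM in chow, 6.52, 3.23, 3.73 and 4.60 in HF, 3.54, 5.08, 6.13 and 6.02 in HF_PBS and 3.98, 3.85, 4.14 and 5.50 in HF_5AzaD. All 12 libraries of the high fat diet lay above all 4 chow libraries. The mean was 5.19 ± 1.20 FPKM (SD, n = 4) in HF_PBS against 2.20 ± 0.318 in chow, a log2 difference of 1.06 (SE 0.20, adjusted p = 0.00390). In HF_5AzaD it was 4.36 ± 0.767 (log2 difference from chow 0.85, SE 0.20, adjusted p = 0.0179). HF alone differed from chow by 0.86 (SE 0.20), which did not pass (adjusted p = 0.682). Col5a2 was past the test in HF_PBS against chow in all 19 alternatives to the processing, with adjusted p-values from 0.00281 to 0.0325. For HF_5AzaD it was lost without chow 3 (adjusted p = 0.0551) and without HF_5AzaD 7 (0.0685), within a range of 0.0127 to 0.0746 over its 18 alternatives.

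Col11a1 is the alpha 1 chain of type XI collagen, a fibril-forming collagen best known from cartilage. Its values were 0.741, 0.938, 0.693 and 0.871 FPKM in chow, 2.02, 1.19, 1.26 and 4.89 in HF, 2.03, 1.84, 4.21 and 2.98 in HF_PBS and 2.13, 1.39, 1.62 and 3.82 in HF_5AzaD. No chow library reached 1 FPKM, and no other library was below it. HF_PBS exceeded chow by 1.27 (SE 0.35, adjusted p = 0.0177), the largest log2 difference among the members that passed at their highest locus. The difference from chow was 0.95 in HF (adjusted p = 0.682) and 0.99 in HF_5AzaD (adjusted p = 0.0630), neither past the test. The HF_PBS call was lost without HF_PBS 3 (adjusted p = 0.0542) or without HF_PBS 4 (0.0535), within a range of 0.00806 to 0.0542 over 19 alternatives.

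Col11a2, the other type XI chain measured, stood at 16.5, 18.6, 16.4 and 22.5 FPKM in chow and 28.2, 20.9, 43.0 and 24.2 in HF. In the injected groups it was at 24.9, 24.6, 32.2 and 36.9 (HF_PBS) and 27.5, 18.8, 38.1 and 27.9 (HF_5AzaD). Every HF_PBS library was above every chow library, while HF and HF_5AzaD each overlapped chow through 1 library. HF_PBS exceeded chow by 0.66 (SE 0.23, adjusted p = 0.0442). The difference was 0.60 for HF (adjusted p = 0.685) and 0.56 for HF_5AzaD (adjusted p = 0.0987). In HF_PBS against chow, 13 of 20 alternatives kept Col11a2 past the test; leaving out any of chow 1 to 4, HF_PBS 3 or HF_PBS 4 ended the call, over a range of adjusted p from 0.0193 to 0.135.

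Col27a1 encodes a fibrillar collagen with a shorter triple helix. It was at 2.42, 3.27, 2.26 and 4.68 FPKM in chow, 7.04, 3.56, 8.28 and 6.40 in HF, 4.44, 4.99, 4.70 and 6.82 in HF_PBS and 4.74, 6.69, 6.21 and 5.74 in HF_5AzaD. Chow 4 was the highest chow library and overlapped HF and HF_PBS but not HF_5AzaD. The log2 difference from chow was 0.68 in HF_PBS (SE 0.24, adjusted p = 0.0446), 0.83 in HF_5AzaD (SE 0.24, adjusted p = 0.0322) and 0.89 in HF (SE 0.24, adjusted p = 0.682). The largest of these 3 differences was thus the one that did not pass, in a comparison where 0 loci passed. The HF_PBS call held in 12 of 20 alternatives (adjusted p 0.0259 to 0.138) and was lost without chow 1, 2 or 3 or without HF_PBS 2, 3 or 4. The HF_5AzaD call held in 13 of 19 (0.0279 to 0.0969) and was lost without chow 1, 2 or 3 or without HF_5AzaD 5 or 7.

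Col5a3, a further type V chain, was at 2.80, 3.80, 3.50 and 3.31 FPKM in chow, 4.25, 4.44, 5.86 and 5.78 in HF, 3.75, 4.46, 9.24 and 6.12 in HF_PBS and 3.60, 7.28, 6.04 and 9.18 in HF_5AzaD. All HF libraries were above all chow libraries, while HF_PBS and HF_5AzaD each had 1 library within the chow range. HF_5AzaD exceeded chow by 0.81 (SE 0.26, adjusted p = 0.0492), close to the threshold. That call held in 7 of 19 alternatives (adjusted p 0.0237 to 0.166) and was lost without any of chow 1 to 4 or without HF_5AzaD 5, 6 or 7. HF_PBS exceeded chow by 0.66 (adjusted p = 0.0696), not past the test.

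**Figure D2:**
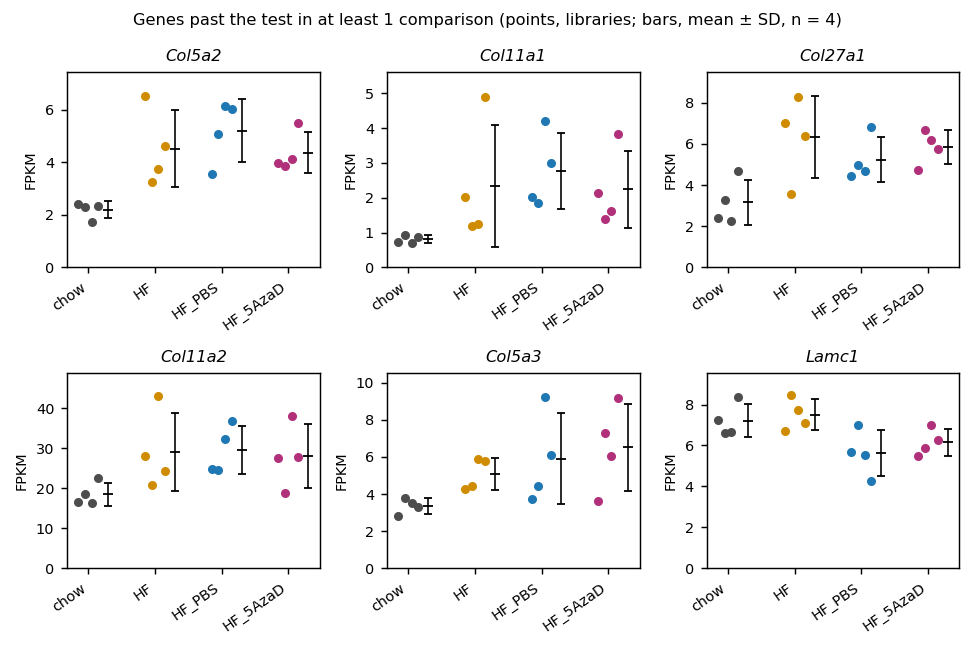
FPKM in each library (points) with mean ± SD (bars, n = 4) for the 5 fibrillar collagens and the laminin chain Lamc1 that passed the test in at least 1 comparison. Chow is the lowest group for each fibrillar gene, with Col5a2 at 1.73 to 2.42 in chow and 3.54 to 6.13 in HF_PBS, and Lamc1 is lowest in HF_PBS.

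Counts over the family have to be read against the table as a whole. HF_PBS and chow differed at 28.2% of all loci, with 12.4% higher and 15.7% lower in HF_PBS, while 4 of 19 collagen and laminin genes (21.1%) were higher and 0 were lower. Between HF_5AzaD and chow, 16.3% of loci differed (7.18% higher, 9.11% lower), and 3 of 19 members (15.8%) were higher and 0 lower. With both directions counted, the members' share was below that of all loci in each comparison; for higher calls alone it was above. The difference between these shares was not tested. The median log2 difference of the 19 genes was 0.32 in HF_PBS against chow and 0.349 in HF_5AzaD against chow, beside 0.0132 and 0.00434 over all loci. For the 7 fibrillar genes alone it was 0.663 and 0.805. In HF against chow, where 0 passed, the median of these 7 was 0.598, with 6 higher and 1 lower. Between HF_PBS and HF it was 0.134. Without HF_PBS 2 and HF_5AzaD 7, 6 members passed in HF_PBS against chow, 4 higher and 2 lower. The higher ones were Col5a2, Col11a1, Col11a2 and, newly, Col5a3 (adjusted p = 0.0442), while Col27a1 was lost (0.0703). The lower ones were Lamc1 (0.0217) and Col4a1 at its highest locus (0.0479). In HF_5AzaD against chow 0 members passed without these libraries, and the count over all loci also went down, from 2414 to 456. In HF_PBS against HF, described further on, 2 members were lower with these 2 libraries and 2 without them.

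High fat diet alone gave no call. In HF against chow, 0 of 19 members and 0% of all loci passed limma's test, with 5 members and 1020 loci at an unadjusted p under 0.05. Of the 19 members, 14 were higher in HF and 5 were lower, with a median difference of 0.154 beside -0.00755 for all loci. Col5a2, Col11a1 and Col5a3 had groups that did not overlap, all higher in HF, where 6.95% of all loci had such groups. The lowest p among higher members belonged to Col5a2 and Col27a1, given above. Among lower members it belonged to Col13a1 (log2 difference -1.73, 95% interval -3.07 to -0.38, adjusted p = 0.682) and to Col3a1 (-0.43, -1.58 to 0.73, adjusted p = 0.884).

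5-AzaD added no call beyond its vehicle. In HF_5AzaD against HF_PBS, 0 of 19 members and 0% of all loci passed limma's test, with 0 members and 1100 loci at an unadjusted p under 0.05, and the lowest adjusted p among the members was 0.789. None of the 19 had groups that did not overlap, against 2.4% of all loci tested. Of the 11 further members in the fit without the filter, Col4a4 and Lama1 had such groups, both higher in HF_5AzaD. The share of such groups among loci below the filter is not given, so this count has no background beside it. The tested members with the lowest p were Col13a1 (log2 difference 0.98, 95% interval -0.36 to 2.33) and Col1a1 (0.65, -0.63 to 1.92) upwards, and Col5a2 (-0.21, -0.64 to 0.21) and Col16a1 (-0.24, -0.77 to 0.29) downwards. Each of these intervals spans 0.

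**Figure D3:**
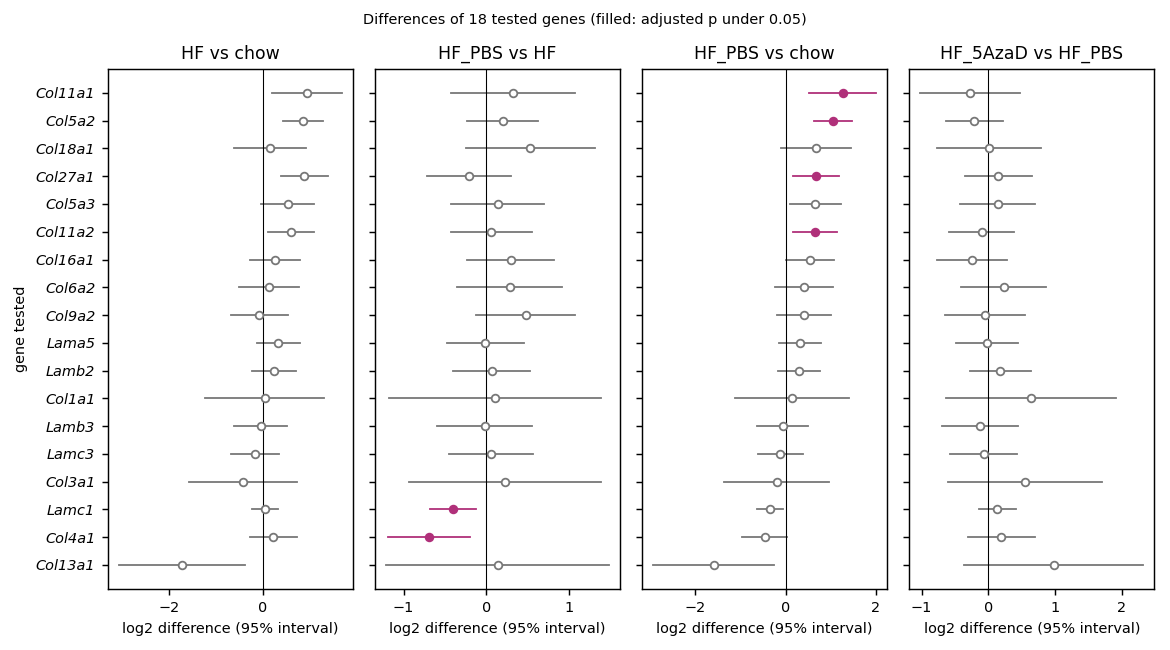
Log2 differences with 95% intervals for 18 of the 19 tested genes in 4 comparisons, ordered by HF_PBS against chow; filled points passed the test. Of the fibrillar genes, 4 are filled in HF_PBS against chow, Lamc1 and Col4a1 in HF_PBS against HF, and none in HF against chow or HF_5AzaD against HF_PBS.

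A pair of basement membrane chains, Col4a1 and Lamc1, was lower in the vehicle comparison. Between HF_PBS and HF, both fed the high fat diet, 23.9% of all loci differed (10.7% higher, 13.2% lower), and 2 of 19 members (10.5%) were lower and 0 higher. Col4a1 is a main chain of the type IV network, and Lamc1 the gamma chain found in most laminins. Their share was below that of all loci. Other basement membrane members did not pass there, with log2 differences of 0.06 for Lamb2, 0.05 for Lamc3, -0.01 for Lama5 and 0.53 for Col18a1. In turn, 0 of 19 members passed in HF_5AzaD against HF, where 14.2% of loci did (6.61% higher, 7.64% lower). None of the 19, at their highest loci, reached an unadjusted p under 0.05 there, and the lowest adjusted p was 0.159. Below the filter, Col4a4 and Lama1 had unadjusted p-values of 0.0315 and 0.038 in limma's fit without it (adjusted p = 0.158 and 0.175).

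Lamc1 was at 7.24, 6.63, 6.64 and 8.37 FPKM in chow, 6.71, 8.47, 7.74 and 7.10 in HF, 5.70, 6.99, 5.55 and 4.24 in HF_PBS and 5.48, 5.87, 7.02 and 6.28 in HF_5AzaD. HF_PBS 4 was the lowest library and HF_PBS 2 reached into the range of HF. HF_PBS was 5.62 ± 1.12 FPKM (SD, n = 4) against 7.50 ± 0.770 in HF, and Lamc1 fell by 0.40 on the log2 scale (SE 0.13, adjusted p = 0.0389). Against chow the difference was -0.35 (adjusted p = 0.0594), and HF_5AzaD differed from HF by -0.26 (adjusted p = 0.176). The HF_PBS against HF call held in 11 of 19 alternatives (adjusted p 0.012 to 0.132) and was lost without HF 6, 7 or 8 or without HF_PBS 1, 3 or 4.

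Col4a1, at its highest locus, was at 6.91, 6.75, 7.17 and 7.83 FPKM in chow, 9.09, 8.28, 11.4 and 5.95 in HF, 4.07, 7.50, 6.38 and 3.29 in HF_PBS and 5.31, 4.40, 7.07 and 7.17 in HF_5AzaD. The lowest HF library, HF 8, lay inside the range of both injected groups. HF_PBS differed from HF by -0.69 (SE 0.23, adjusted p = 0.0442) and HF_5AzaD by -0.49 (adjusted p = 0.159). The first held in 10 of 19 alternatives and was lost without HF 5, 6 or 7 or without HF_PBS 1 or 4. A second locus of the same symbol showed the same order, at 2.74, 2.95, 2.77 and 4.29 in chow, 6.28, 4.67, 4.46 and 3.76 in HF, 2.17, 2.26, 3.17 and 1.69 in HF_PBS and 2.78, 2.46, 3.34 and 3.89 in HF_5AzaD. Every HF_PBS library was below every HF library there, and the locus fell by 0.91 (SE 0.19, adjusted p = 0.00578).

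The third locus named Col4a1 moved in the opposite direction. It was at 1.47, 0, 0.0798 and 0.163 FPKM in chow and 1.31, 0, 0 and 0 in HF, but at 3.82, 8.43, 3.47 and 6.75 in HF_PBS and 3.68, 2.77, 3.99 and 8.03 in HF_5AzaD. Thus 3 of 4 HF libraries and 1 of 4 chow libraries were listed at 0, and all 8 injected libraries were above all 8 uninjected ones. It rose by 3.06 on the log2 scale in HF_PBS against HF (SE 0.50, adjusted p = 0.00262) and by 2.88 against chow (adjusted p = 0.00316). HF_5AzaD exceeded HF by 2.79 (adjusted p = 0.00777) and chow by 2.61 (adjusted p = 0.00991). These fitted differences rest on the pseudocount of 0.5 where libraries are listed at 0 and are no bound. With the 3 loci summed, Col4a1 no longer differed by the test between HF_PBS and HF (log2 difference -0.06, adjusted p = 0.864, at the end of a range from 0.0146 over 19 alternatives). The table gives no positions for the loci, so which piece of the gene each covers is not known.

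**Figure D4:**
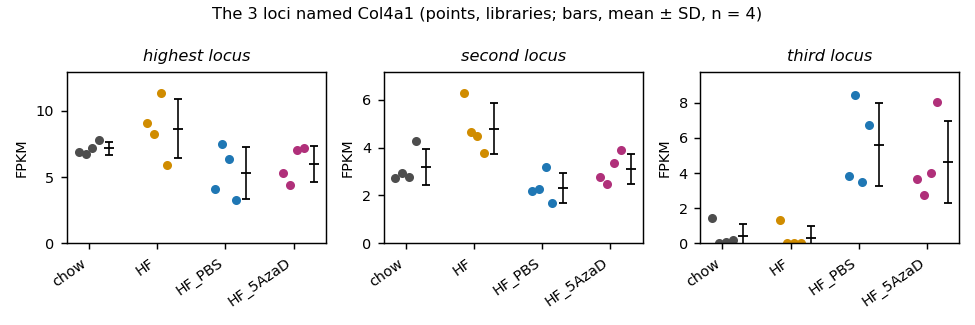
FPKM of the 3 loci named Col4a1 in each library (points) with mean ± SD (bars, n = 4). The highest and second loci are lower in HF_PBS than in HF, and the third is at most 1.47 in uninjected libraries and at least 2.77 in injected ones.

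Col4a3 and Col4a4 encode minor type IV chains that assemble together with Col4a5 in specialised basement membranes such as that of the kidney glomerulus. Both averaged under 1 FPKM and were left out of the main test, so they were taken from the fit without that filter, over 25273 loci, in which 7.12% of loci were lower in HF_PBS than in HF and 9.23% lower than in chow. Of the 30 members in that fit, these 2 were the lower ones in each comparison, a share below that of all loci. Higher members there were 0 against HF and 2 against chow. Col4a4 was at 1.03, 1.14, 0.770 and 0.709 FPKM in chow, 0.903, 1.18, 1.08 and 0.853 in HF, 0.373, 0.453, 0.394 and 0.485 in HF_PBS and 0.523, 0.525, 1.04 and 0.686 in HF_5AzaD. Col4a3 was at 0.443, 0.614, 0.720 and 0.858 in chow, 0.527, 0.785, 0.781 and 0.383 in HF, 0.129, 0.247, 0.374 and 0.150 in HF_PBS and 0.336, 0.306, 0.624 and 0.339 in HF_5AzaD. For both genes every HF_PBS library was below every chow and every HF library, at levels where few fragments are counted.

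Col4a4 fell by 0.70 in HF_PBS against HF (SE 0.15, adjusted p = 0.00972) and by 0.60 against chow (SE 0.15, adjusted p = 0.0162). Col4a3 fell by 0.62 (SE 0.16, adjusted p = 0.0246) and 0.68 (SE 0.16, adjusted p = 0.0152) in the same comparisons. Col4a4 passed against HF in all 11 alternatives run on it (adjusted p 0.00882 to 0.0363), and against chow in 10 of 11 (0.0107 to 0.0518, lost without chow 2). Col4a3 passed against HF in 7 of 11 (0.0194 to 0.0859, lost without HF 6, HF 7, HF_PBS 1 or HF_PBS 4) and against chow in 10 of 11 (0.0101 to 0.055, lost without HF_PBS 4). These 2 genes were chosen for description after their values were seen. In HF_5AzaD, every library was above every HF_PBS library for Col4a4, with a difference of 0.35 that did not pass (adjusted p = 0.594). The neighbouring genes correlated at r = 0.765 over the 16 libraries (rho = 0.785, permutation p = 0.00072 and 0.00052, adjusted over 8 relations 0.000973 and 0.00096), but at -0.0415 within the 8 uninjected and 0.788 within the 8 injected libraries. The relation thus did not hold within the uninjected libraries. Libraries were permuted without regard to group, and both genes were lower in HF_PBS, so the permutation p-values also reflect that difference between groups. The injected set joins HF_PBS and HF_5AzaD, which did not overlap for Col4a4, so its r may also hold a difference between groups. Without HF_PBS 1 and chow 4, r was 0.806.

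Markers of endothelium, the cells that line brain vessels, gave no call: 0 of 17 tested passed in any of the 6 comparisons. Such counts do not show whether the markers and Col4a1 or Lamc1 moved together, and the correlation with Col4a1 is given further on. All 17 of the 19 listed markers in the table averaged at least 1 FPKM, and none was listed at 0. Their summed level was 265 to 376 FPKM in chow, 222 to 380 in HF, 245 to 345 in HF_PBS and 205 to 363 in HF_5AzaD. The median difference of these markers in HF_PBS against HF was -0.00868. Of 14 mural cell markers, Higd1b was lower in HF_PBS than in HF (log2 difference -0.42, adjusted p = 0.00665) and 0 were higher. Over all loci, 13.2% were lower and 10.7% higher there. Summed mural markers spanned 158 to 218 FPKM in chow, 152 to 248 in HF, 150 to 512 in HF_PBS and 191 to 561 in HF_5AzaD.

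Col1a1 and Col3a1, the chains of the coarse fibrils made by fibroblasts, were highest in the same 2 libraries, HF_PBS 2 and HF_5AzaD 7. Col1a1 was at 7.75, 5.12, 2.03 and 2.03 FPKM in chow, 2.24, 4.57, 4.49 and 4.27 in HF, 1.96, 19.2, 2.72 and 2.32 in HF_PBS and 4.16, 5.04, 6.58 and 14.0 in HF_5AzaD. Col3a1 was at 7.20, 6.11, 2.78 and 2.38 in chow, 2.19, 2.81, 3.77 and 3.37 in HF, 1.90, 15.4, 1.87 and 2.56 in HF_PBS and 3.41, 3.59, 6.94 and 10.1 in HF_5AzaD. All 4 groups overlapped for both genes. Neither gene passed in any comparison: HF_PBS differed from chow by 0.14 for Col1a1 (95% interval -1.13 to 1.42) and -0.20 for Col3a1 (-1.36 to 0.96). Without HF_PBS 2 the Col1a1 difference turned to -0.56. Intervals of this width do not show that the groups were alike.

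Both genes followed the leptomeningeal markers, which stand for fibroblasts of the pia and arachnoid. Of 18 such markers, 17 were in the table, 15 averaged at least 1 FPKM and none was listed at 0. Summed, they spanned 245 to 1460 FPKM in chow, 227 to 623 in HF, 534 to 3070 in HF_PBS and 889 to 4010 in HF_5AzaD. Much of these sums was the single marker Ptgds, with a mean of 400 FPKM in HF and 1888 in HF_5AzaD. The score of the markers, their mean log2 value less each marker's own mean over the 16 libraries, was highest in HF_5AzaD 7 (1.48) and HF_PBS 2 (1.45). Of the 15, Ptgds and Slc6a13 passed in HF_5AzaD against HF, both higher, where 6.61% of all loci were higher. In the other 5 comparisons 0 passed.

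Correlations were computed on log2 values after the pattern was seen, 8 in all, of which 5 were with the leptomeningeal score. Col1a1 correlated with it at r = 0.93 (rho = 0.882; both permutation p = 1e-05, the smallest that 100000 permutations can give, adjusted 4e-05). Without HF_5AzaD 7 and HF_PBS 2, r was 0.845, and it was 0.967 within the 8 uninjected and 0.973 within the 8 injected libraries. For Col3a1 r was 0.877 (rho = 0.835, permutation p = 2e-05 and 8e-05, adjusted 5.33e-05 and 0.000213), 0.737 without the same 2 libraries, and 0.953 and 0.935 within the uninjected and injected libraries. The relation held in each set. Col1a1 and Col3a1 correlated with each other at r = 0.948 (rho = 0.909, both permutation p = 1e-05, adjusted 4e-05), at 0.877 without those 2 libraries, and at 0.856 and 0.977 within the sets. Col5a2 showed no such relation by the test, with r = 0.254 (rho = 0.2, permutation p = 0.34 and 0.458, adjusted likewise), 0.0128 without the same 2 libraries, and -0.202 and 0.162 within the uninjected and injected libraries.

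**Figure D5:**
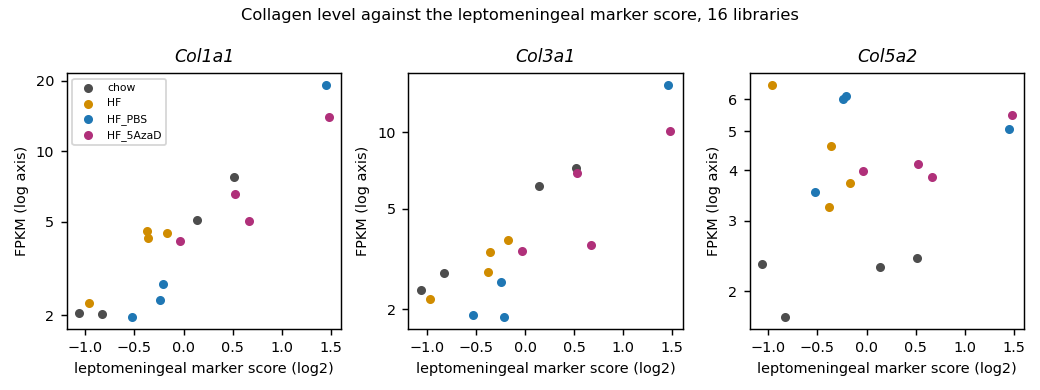
FPKM (log axis) of Col1a1, Col3a1 and Col5a2 against the leptomeningeal marker score (log2), 1 point per library. Col1a1 and Col3a1 climb with the score to 19.2 and 15.4 FPKM in HF_PBS 2, whereas Col5a2 separates the 4 chow libraries from the rest at any score.

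Col18a1, the source of endostatin, and Lamb2 also correlated with the leptomeningeal score, at r = 0.765 (rho = 0.721, permutation p = 0.00046 and 0.00209, adjusted 0.00092 and 0.00279) and 0.757 (rho = 0.785, permutation p = 0.00073 and 0.0006, adjusted 0.000973 and 0.00096). Without HF_5AzaD 7 and HF_PBS 2, r went down to 0.538 and 0.524. Within the uninjected libraries r was 0.422 and 0.456, and within the injected ones 0.778 and 0.824. Col18a1 ranged from 1.89 to 8.63 FPKM, with HF_PBS 2 and HF_5AzaD 7 the highest. For Col4a1 and the endothelial score r was 0.6 (rho = 0.441, permutation p = 0.0133 and 0.0893, adjusted 0.0152 and 0.102), and 0.404 without HF 7 and HF_5AzaD 5. It was 0.512 within the uninjected and 0.867 within the injected libraries.

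Lamb2 was at 9.48, 8.94, 6.65 and 7.88 FPKM in chow, 8.99, 8.64, 13.4 and 8.55 in HF, 7.38, 13.8, 11.2 and 9.43 in HF_PBS and 9.15, 9.19, 13.1 and 16.5 in HF_5AzaD, with all groups overlapping. It passed in no comparison (HF_5AzaD against chow 0.48, adjusted p = 0.124). Lamc3, a gamma chain of the pial and retinal surface, was at 2.68, 1.91, 2.08 and 2.17 in chow, 1.83, 1.54, 2.40 and 1.90 in HF, 0.986, 2.74, 2.86 and 1.86 in HF_PBS and 1.22, 2.10, 1.91 and 2.45 in HF_5AzaD. Its group means lay within 1.92 to 2.21 FPKM.

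Lama5, the alpha chain of adult vascular laminin, was at 0.819, 0.979, 0.750 and 0.993 FPKM in chow, 1.24, 0.973, 1.59 and 1.22 in HF, 0.785, 1.67, 1.65 and 0.979 in HF_PBS and 0.879, 0.806, 1.52 and 1.78 in HF_5AzaD. Its group means were 0.885 in chow and 1.25 to 1.27 in the others, and it passed in no comparison. Lamb3, a laminin beta chain of epithelia, ranged from 0.388 to 1.86 over all libraries and also passed in none. Lama1, an alpha chain known from embryonic and meningeal basement membranes, ranged from 0.272 to 0.756, below the filter. Of the 6 laminins tested, only Lamc1 passed, and in 1 comparison.

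Among the remaining tested collagens, Col13a1 had the widest spread. Its values were 5.35, 5.22, 5.44 and 2.28 FPKM in chow, 0.461, 0.805, 4.54 and 0.228 in HF, 2.50, 1.23, 0.701 and 0.573 in HF_PBS and 3.60, 0.816, 8.80 and 1.53 in HF_5AzaD. Chow 1, 2 and 3 lay close together above 5 FPKM, and the other groups mixed high and low libraries. HF_PBS differed from chow by -1.59 (95% interval -2.94 to -0.25, adjusted p = 0.0697), not past the test, and HF_5AzaD differed from HF by 1.12 (adjusted p = 0.234).

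Col16a1, a collagen that associates with fibrils, was at 2.73, 4.13, 6.21 and 4.00 FPKM in chow, 4.23, 4.24, 7.29 and 4.76 in HF, 4.23, 5.18, 8.05 and 8.45 in HF_PBS and 4.83, 4.38, 6.69 and 5.09 in HF_5AzaD. Col6a2, a chain of the beaded filaments, was at 4.03, 4.37, 2.92 and 3.70 in chow, 4.98, 3.24, 5.63 and 3.12 in HF, 3.58, 9.01, 5.28 and 3.88 in HF_PBS and 3.71, 5.25, 6.66 and 10.2 in HF_5AzaD. The highest Col6a2 libraries were again HF_5AzaD 7 and HF_PBS 2. Neither gene passed in any comparison, with a difference of 0.51 for Col6a2 in HF_5AzaD against HF (adjusted p = 0.253) and 0.55 for Col16a1 in HF_PBS against chow (adjusted p = 0.108). Col9a2, a chain of the fibril-associated type IX collagen, ranged from 1.48 to 5.07 and passed in none.

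Below the filter, Col9a1, the partner of Col9a2, was at 0.0668, 0.148, 0.0809 and 0.303 FPKM in chow and 0.490, 0.319, 0.368 and 0.719 in HF_PBS, with no overlap. In the fit without the filter that difference was 0.58 (adjusted p = 0.0549), not past the test. Col2a1, the main collagen of cartilage, reached 3.50 FPKM in HF_PBS 3 and 1.04 in HF_5AzaD 7, and was at most 0.545 in the other 14 libraries. Col8a1, a short-chain collagen of vessel walls, peaked at 1.64 in HF_PBS 2. Col14a1 ranged from 0.0702 to 0.829, Col7a1 (at a locus it shares with Mir711) from 0.182 to 0.608 and Col23a1 from 0.0389 to 0.438. Col15a1 and Col17a1 stayed at or below 0.116 FPKM throughout.

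Of 29 tested genes that modify and assemble collagen, 4 (13.8%) were higher and 0 lower in HF_PBS than in chow, where 12.4% of all loci were higher. In HF_5AzaD against chow 4 (13.8%) were higher and 0 lower, beside 7.18% of all loci higher. In HF_PBS against HF, 3 (10.3%) were higher and 1 was lower, beside 10.7% higher over all loci, and in HF_5AzaD against HF 2 (6.9%) were higher and 0 lower, beside 6.61%. Except in HF_5AzaD against chow, the shares of higher genes were near those of all loci. The shares of lower genes were 0%, 0%, 3.45% and 0% in the order given. They were below the 15.7%, 9.11%, 13.2% and 7.64% of all loci that were lower, a difference that was not tested. Without HF_PBS 2 and HF_5AzaD 7, 5 were higher in HF_PBS than in chow and 3 than in HF, 0 passed in either HF_5AzaD comparison, and Leprel2 was no longer called. Ppib, the prolyl isomerase cyclophilin B of the endoplasmic reticulum, was at 124 ± 13.2 FPKM in HF_PBS (SD, n = 4) and 91.3 ± 5.88 in chow (log2 difference 0.44, adjusted p = 0.00621), and 121 ± 10.7 in HF_5AzaD (adjusted p = 0.0171). Ppib and Crtap, its partner in the prolyl 3-hydroxylation complex, were each higher in all 4 comparisons of an injected with an uninjected group.

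Crtap stood at 2.26 ± 0.515 FPKM in HF_PBS, 2.20 ± 0.749 in HF_5AzaD, 1.16 ± 0.164 in chow and 1.19 ± 0.312 in HF (HF_PBS against chow 0.72, adjusted p = 0.0189). Plod1, a lysyl hydroxylase of collagen, was higher in HF_PBS than in chow by 0.68 (adjusted p = 0.0174) and than in HF by 0.67 (adjusted p = 0.0202). P4ha2, a prolyl 4-hydroxylase subunit, was higher in HF_5AzaD than in chow by 0.52 (adjusted p = 0.0271). Leprel2, a prolyl 3-hydroxylase, was the lower one, by -0.24 in HF_PBS against HF (adjusted p = 0.0406).

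Of 17 receptors of collagens and laminins, 2 (11.8%) were higher and 1 (5.88%) lower in HF_PBS than in chow, beside 12.4% and 15.7% of all loci. In HF_PBS against HF, and in HF_5AzaD against chow and against HF, 1 was higher and 1 lower (5.88% each). Over all loci these were 10.7% and 13.2%, 7.18% and 9.11%, and 6.61% and 7.64%. Each share was below that of all loci. Dystroglycan (Dag1), which binds laminin, was lower in each injected group than in each uninjected one. Its level was 20.7 ± 2.79 FPKM in HF_PBS, 20.9 ± 2.30 in HF_5AzaD, 28.0 ± 1.46 in chow and 28.9 ± 3.56 in HF (HF_PBS against HF -0.47, SE 0.11, adjusted p = 0.00984). Sgce, a sarcoglycan of the same complex, was higher in the same 4 comparisons (HF_PBS against HF 0.38, adjusted p = 0.00912), and Sgcb was higher in HF_PBS than in chow (0.31, adjusted p = 0.0179). No other receptor of the list passed.

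Of 18 matrix proteases and inhibitors tested, 0 were higher in any comparison. Over all loci, 10.7% were higher in HF_PBS than in HF and 12.4% than in chow. In HF_5AzaD, 6.61% of all loci were higher than in HF and 7.18% than in chow. In HF_PBS 3 (16.7%) were lower than in HF and 3 than in chow, near the 13.2% and 15.7% of all loci that were lower. In HF_5AzaD 3 (16.7%) were lower than in HF and 2 (11.1%) than in chow, beside 7.64% and 9.11% of all loci. These shares were above those of all loci, a difference that was not tested. Adam10, a membrane sheddase, was lower in all 4 comparisons of injected with uninjected groups (HF_PBS against HF -0.38, adjusted p = 0.0167). Mmp17, a membrane-anchored metalloprotease, was lower in HF_PBS than in HF by -1.44 (adjusted p = 0.0141) and than in chow by -1.51 (adjusted p = 0.0103). Mmp16 was lower than in HF in both injected groups (-0.84 and -0.88, adjusted p = 0.0155 and 0.0220), Adam9 was lower than in chow in both, and Adam17 was lower in HF_5AzaD than in HF.

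TGF-beta is known as an inducer of collagen genes. Of 16 genes of its pathway, 2 (12.5%) were higher and 2 (12.5%) lower in HF_PBS than in chow, beside 12.4% and 15.7% of all loci. Against HF, 1 (6.25%) was higher and 2 (12.5%) lower in HF_PBS, beside 10.7% and 13.2%. In HF_5AzaD 1 was higher and 1 lower than in chow (6.25% each), beside 7.18% and 9.11%. Against HF, 0 were higher and 1 (6.25%) lower, beside 6.61% and 7.64%. These shares were near or below those of all loci. Tgfb1, a ligand, was higher in HF_PBS than in chow (0.50, adjusted p = 0.0280) and in HF_5AzaD than in chow (0.57, adjusted p = 0.0285). Smad4, the shared signal carrier, was lower in all 4 comparisons of injected with uninjected groups (HF_PBS against HF -0.70, adjusted p = 0.00590). Tgfbi, a secreted target, was higher in HF_PBS than in HF by 1.02 (adjusted p = 0.00822) and than in chow by 0.75 (adjusted p = 0.0281). Smad3 was lower in HF_PBS than in HF, and the co-receptor Tgfbr3 was lower in HF_PBS than in chow. Of 10 other basement membrane components, 1 (10%) passed, beside 15.7% of all loci lower in that comparison: Ntn4, a laminin-related netrin, was lower in HF_PBS than in chow by -0.72 (adjusted p = 0.0328). Across these 5 lists 0 genes passed in HF against chow or in HF_5AzaD against HF_PBS.

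Of these 90 partner genes, 10 passed in HF_5AzaD and 15 in HF_PBS against chow, beside 16.3% and 28.2% of all loci. Against HF 8 and 12 passed, beside 14.2% and 23.9%. The partners' share was below that of all loci in each of these comparisons, a difference that was not tested. The calls rested in part on single libraries, most of all in HF_5AzaD. Against chow, 10 passed in HF_5AzaD, but 0 without HF_5AzaD 7, 1 or 2 without any 1 chow library, and 6 without HF_5AzaD 3. Against HF, 8 passed in HF_5AzaD, 1 without HF_5AzaD 7 or HF 6, and 4 without HF_5AzaD 3. Without HF_PBS 2 and HF_5AzaD 7 together, Smad4 against HF was the 1 call of HF_5AzaD that passed. In HF_PBS, 12 passed against HF, 5 without HF 6 or HF_PBS 4, and 14 without that pair. Against chow 15 passed in HF_PBS, 4 without HF_PBS 4, 8 without chow 2, 7 without chow 4, 24 without HF_PBS 1, and 17 without the pair. Without the pair, Adam10 and Tgfb1 in HF_PBS against chow missed the test (adjusted p = 0.0503 and 0.0618), as did Leprel2 against HF (0.0892).

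Some markers of other cell types passed the test in the comparisons where fibrillar genes rose, as did many loci of the table. Over all loci, 12.4% were higher and 15.7% lower in HF_PBS than in chow. In HF_5AzaD, 7.18% were higher and 9.11% lower than in chow. The marker counts were not tested against these shares. In HF_PBS against chow, 5 of 13 microglial markers and 3 of 12 astrocyte markers were higher, 2 of 16 oligodendrocyte markers were higher, and 4 of 14 cortical neuron and 4 of 10 upper-layer markers were lower. Of 15 striatal markers 2 were higher and 1 lower, of 13 deep-layer markers 1 was higher, and of 14 mural and 5 choroid plexus markers 1 each was lower. Leptomeningeal, endothelial and red blood cell markers gave 0 calls there, with 13 of 15 leptomeningeal markers at a higher mean log2 level in HF_PBS (median difference 0.325). In HF_5AzaD against chow, 3 of 13 microglial, 1 of 16 oligodendrocyte, 1 of 14 mural and 1 of 3 red blood cell markers were higher. Lower there were 1 of 12 astrocyte, 1 of 15 striatal, 1 of 10 upper-layer and 1 of 5 choroid plexus markers. None of the 15 leptomeningeal markers passed there, but all 15 had a higher mean log2 level in HF_5AzaD, with a median difference of 0.928. The choroid plexus regulator Otx2 was listed at 0 in all libraries, and no other marker was listed at 0 in all.

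Summed microglial markers were 327 to 398 FPKM in chow, 367 to 481 in HF, 369 to 767 in HF_PBS and 432 to 689 in HF_5AzaD. Summed cortical neuron markers were 7920 to 9550 in chow, 4960 to 8530 in HF, 3330 to 8780 in HF_PBS and 5390 to 10100 in HF_5AzaD. Striatal markers summed to 328 to 501 in chow, 299 to 1630 in HF, 308 to 1150 in HF_PBS and 294 to 426 in HF_5AzaD. The striatal score, computed like the leptomeningeal one, was high in 1 HF library (HF 8, 2.28) and in 3 of 4 HF_PBS libraries (1.2, 1.07 and 1.28 in HF_PBS 2, 3 and 4), and at most 0.202 in the other 12. Astrocyte markers summed to 3340 to 4220 in chow, 2940 to 4960 in HF, 3540 to 4980 in HF_PBS and 3760 to 3980 in HF_5AzaD. Oligodendrocyte markers summed to 3810 to 5780, 3430 to 5410, 3560 to 14100 and 2460 to 7450 in the same order of groups. The part of these markers in the higher fibrillar genes was not tested.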

How the data were processed

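Poly-A RNA was sequenced on an Illumina HiSeq, per the labels' protocols. The authors deposited FPKM per merged locus and library, each with a status. Tools named in the submitters' processing notes, without versions, are TopHat, Bowtie, Cufflinks, TopHat2, Bowtie2 and Cuffdiff, with the build rn5. Whether the libraries keep the strand is not stated, so opposite-strand transcripts cannot be told apart. The table held 28168 loci, 18005 with a symbol, and 0 columns from outside the series. Libraries were grouped by their stated treatment; the titles use HFD for the PBS animals, the design text for the diet alone.

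Any locus whose status was not OK throughout was left out (161, of which 136 passed the filter). limma 3.58.1 in R 4.3.3, with a trended prior, was fitted on log2(FPKM + 0.5) with 1 mean per group, 12 residual degrees of freedom and 6 contrasts, after being tested on simulated data. All adjusted p-values for genes are limma's, by Benjamini-Hochberg over all loci. Python 3.11.15 with pandas 2.3.3, scipy 1.17.1 and matplotlib 3.10.9 gave correlations and plots. Alternatives covered the pseudocount (0.1, 1), the filter (none, 5 FPKM), 2 normalizations, the fit, the loci, a replicate block and each library left out.

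Values in every library are given for members past the test in any comparison, the 5 highest collagens and laminins, and the 2 members per direction with the lowest p where none passed; from partner lists, up to 3 called genes with the lowest p per list and comparison. Leprel2 was named after its values were seen. Members, lists and this rule were chosen with earlier results of these data known. Planned ratios between partner chains were not computed, because Col1a2 was listed at 0 and Col4a2 and Lamb1 are not analysed here. The values of 1 tested gene are not reported here; counts over the 19 tested genes include it.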

Additional observations from a re-analysis of the deposited data

Results flagged for a closer look

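Dixon's test at the 95% level was applied to 72 sets of 4 libraries (18 of the 19 tested genes in 4 groups) and marked 6, where chance marks about 1 in 20. Each marked library lay far from the other 3 of its group. Col1a1 was at 19.2 FPKM in HF_PBS 2 (next 2.72) and, at the low end, 2.24 in HF 5 (next 4.27). Col3a1 was at 15.4 in HF_PBS 2 (next 2.56). HF_PBS 2 was also among the highest libraries in leptomeningeal and mural cell markers (scores 1.45 and 0.895), and the part of that in these values was not tested. Col13a1 was at 4.54 in HF 7 (next 0.805) and at 2.28 in chow 4 (next 5.22), the lowest of its group. Lamb2 was at 13.4 in HF 7 (next 8.99).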

How the results depend on the processing

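None of the 9 differences of members past the test changed sign under any alternative run; of the 105 that were not past it, 40 did under at least 1. Over the alternatives that left out no single library, the count of members past the test stayed within 1.5 times for HF against chow, HF_5AzaD against HF_PBS and HF_5AzaD against HF (0 in every one). In HF_PBS against HF (2 in the reported fit) it became 1 with quantile normalization, 0 with the 2 groups alone and 1 with loci summed. In HF_PBS against chow (4) it became 2 with a mean of at least 5 FPKM, where 8 members were tested. In HF_5AzaD against chow (3) it became 0 without HF_PBS 2 and HF_5AzaD 7, an alternative chosen after seeing the data. Leaving out 1 library gave 0 to 2 in HF_PBS against HF, 1 to 8 in HF_PBS against chow and 0 to 3 in HF_5AzaD against chow, and 0 in the other 3 comparisons. Without HF_PBS 1, the 1 call in HF_PBS against HF was a higher one, in place of the 2 lower. The 8 came without HF_PBS 1 (7 higher, 1 lower), the 1 without HF_PBS 3 or 4, the 0 in HF_5AzaD against chow without chow 3 or HF_5AzaD 7, and the 0 in HF_PBS against HF without HF 6, HF 7 or HF_PBS 4. Over all loci, 3536 calls in HF_PBS against HF became 1433 with the 2 groups alone, 2112 in HF_5AzaD against HF became 27 with the 2 groups alone and 400 without HF_5AzaD 7, and 2414 in HF_5AzaD against chow became 399 without HF_5AzaD 7. Without the filter on low values, Col11a2 and Col27a1 in HF_PBS against chow, Col4a1 and Lamc1 in HF_PBS against HF and Col5a3 in HF_5AzaD against chow missed the test (adjusted p 0.0633 to 0.073), where more loci were tested. The third Col4a1 locus missed it in HF_5AzaD against HF with the 2 groups alone (0.0615) and with the replicate block (0.139), and passed in its other alternatives. The cause of the other changes was not tested. With the replicate block, 5 members (4 higher, 1 lower) and 2331 loci passed in HF_PBS against chow, and 0 members and 0 loci in HF_5AzaD against HF; of the partner genes, 3 in place of 15 and 0 in place of 8. With the 2 groups alone, 3 partner genes in place of 12 passed in HF_PBS against HF and 0 in HF_5AzaD against HF, and without the filter 6 in place of 10 in HF_5AzaD against chow. The numbers gave no sign of pairing: correlations of same-numbered libraries were -0.164 to 0.0236 (0 of 4 best with their own number) and -0.107 to 0.0641 (0 of 3). Counts were not used, so the share of a difference at low FPKM that depth limits is unknown.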

Other observations

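Among 18 of the 19 tested genes, HF_PBS 3 held the highest value of 4, and HF 7, HF_PBS 2 and HF_5AzaD 7 of 3 each. These are values of single libraries, given without a test.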
